A study of Mus musculus with 13 samples.

Results

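Called peaks were described at 10 genes of BMP signalling among the 35312 protein-coding genes and lncRNAs of the GENCODE M21 annotation. They are the ligands Bmp2, Bmp4 and Bmp7, the type I receptors Bmpr1a and Bmpr1b, the secreted antagonist Nog, and Id1, Id2, Id3 and Id4. The genes were chosen by name. Their data are the called peaks of H3K4me3 and H3K27me3 within 2 kb of any transcription start site (TSS) or in the gene, and the OLIG2 called peaks in the gene and within 50 kb of it, by cell type. ChIP-Seq lists the stretches of DNA where reads from an antibody pull-down exceed a control. The 3 cell types were neural stem cells (NSCs), oligodendrocyte precursor cells (OPCs) and newly formed oligodendrocytes (NFOs), all labelled untreated, with H3K4me3 and H3K27me3 measured in each and OLIG2 in OPCs and NFOs. The NSCs were bought cells from the cortex of E14.5 CD-1 mice, expanded in culture with EGF and FGF, although their strain label reads C57BL/6. OPCs and NFOs were taken at postnatal day 7 from C57BL/6 brains by immunopanning, first on PDGFRα and then on GalC, after microglia and endothelial cells had been depleted. The NSCs therefore differ from the other cells in age, culture and, by the protocol, strain, and these cannot be told apart from cell type. Each cell type and target has 1 library, so no value has an error between animals, no difference was tested and no p-value is given.

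BMPs are secreted ligands of the TGFβ superfamily that bind pairs of type I and type II receptors, and noggin holds them away from the receptors. The activated receptors phosphorylate SMAD1, SMAD5 and SMAD9, which enter the nucleus with SMAD4, and the Id genes are their classic direct targets. Id proteins have a helix-loop-helix but no basic DNA-binding region, so they hold E proteins and other bHLH factors in pairs that do not bind DNA. In the nervous system BMP signalling is known to favour astrocytes over oligodendrocytes, and ID2 and ID4 are known to retain OLIG proteins and to delay oligodendrocyte differentiation. OLIG2 is itself a bHLH factor that binds E-boxes, whose general form is CANNTG. H3K4me3 marks the start sites of active or poised genes, and H3K27me3, laid down by Polycomb complexes, marks repressed ones.

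Some properties of the lists bear on every value that follows. The lists hold 33292, 18284 and 21736 H3K4me3 peaks and 36069, 29417 and 12688 H3K27me3 peaks for NSCs, OPCs and NFOs, and 7384 and 16911 OLIG2 peaks for OPCs and NFOs. The antibody label of each histone library names the mark other than its title does. Titles were used, because 44.9%, 72.7% and 44.4% of the peaks titled H3K4me3 lay within 1 kb of a TSS, against 7.54%, 13.4% and 20.0% of those titled H3K27me3. An H3K4me3 peak was listed at 5 of 5 OPC markers in every cell type. NSC markers had one at 5, 5 and 4 of 5 in NSCs, OPCs and NFOs, so neither list sets the cell types apart. None was listed at the oligodendrocyte markers Mbp, Mog, Mag, Enpp6 and Myrf in the library labelled NFO. Mbp and Myrf had one in NSCs and OPCs. Other marker lists had H3K4me3 in NSCs, OPCs and NFOs at 3, 2 and 1 of 5 astrocyte genes, 2, 1 and 1 of 5 endothelial genes, 1, 2 and 1 of 5 microglial genes, and 4, 4 and 3 of 5 neuronal genes. A run of 10 or more A or T within 50 bp was found at 77.4% of OPC and 78.8% of NFO OLIG2 peaks, and at 6.92% of equally long windows across the genome. Among histone peaks narrower than 500 bp it was found at 81.1%, 43.7% and 68.8% for H3K4me3 and 93.1%, 71.7% and 32.0% for H3K27me3 in NSCs, OPCs and NFOs. What part these runs have in any peak was not tested. For the 10 members, the runs are given beside the OLIG2 peaks, and the histone peaks under 500 bp, that they touch.

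The OLIG2 peaks that the results turn on are printed from the mm10 (GRCm38) genome of RefSeq, plus strand, 5′ to 3′. Capitals mark the E-box CAGATG, which reads as CATCTG on the other strand. They also mark the E-box CAGCTG, and would mark CATATG, which read alike on both strands. Shown are the peaks with such an E-box and no run of 10 or more A or T, the intronic and upstream peaks of Bmp4, and further peaks outside exons that coincided with a histone mark in all 3 cell types.
Bmp4 intron, OPC, chr14:46386578-46386807: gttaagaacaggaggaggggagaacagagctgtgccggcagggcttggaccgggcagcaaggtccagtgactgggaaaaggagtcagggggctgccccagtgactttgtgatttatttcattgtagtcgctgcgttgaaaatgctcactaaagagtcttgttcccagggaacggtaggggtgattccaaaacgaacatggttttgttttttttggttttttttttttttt
Bmp4 upstream, NFO, chr14:46394274-46394509: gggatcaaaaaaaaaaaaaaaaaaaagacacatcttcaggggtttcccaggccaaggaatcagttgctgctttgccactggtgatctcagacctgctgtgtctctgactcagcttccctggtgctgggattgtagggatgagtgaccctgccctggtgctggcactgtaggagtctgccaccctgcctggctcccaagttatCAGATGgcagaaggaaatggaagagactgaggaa
Bmp7 intron, NFO, chr2:172927858-172928093: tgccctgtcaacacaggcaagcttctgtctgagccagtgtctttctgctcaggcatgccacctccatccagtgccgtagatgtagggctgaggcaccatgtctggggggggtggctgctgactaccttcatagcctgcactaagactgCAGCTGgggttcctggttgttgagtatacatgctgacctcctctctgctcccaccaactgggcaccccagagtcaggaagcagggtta
Bmpr1a upstream, OPC, chr14:34504601-34504830: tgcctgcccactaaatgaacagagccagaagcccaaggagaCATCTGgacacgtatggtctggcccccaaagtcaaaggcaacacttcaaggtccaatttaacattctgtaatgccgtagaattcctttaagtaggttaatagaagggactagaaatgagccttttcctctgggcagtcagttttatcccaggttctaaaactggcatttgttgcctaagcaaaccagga
Bmpr1a downstream, OPC, chr14:34363247-34363476: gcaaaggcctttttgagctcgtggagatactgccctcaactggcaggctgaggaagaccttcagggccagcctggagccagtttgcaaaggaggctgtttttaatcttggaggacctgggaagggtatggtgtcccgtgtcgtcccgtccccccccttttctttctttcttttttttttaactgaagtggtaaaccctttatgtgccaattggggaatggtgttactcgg
Id3 upstream, OPC, chr4:136140348-136140577: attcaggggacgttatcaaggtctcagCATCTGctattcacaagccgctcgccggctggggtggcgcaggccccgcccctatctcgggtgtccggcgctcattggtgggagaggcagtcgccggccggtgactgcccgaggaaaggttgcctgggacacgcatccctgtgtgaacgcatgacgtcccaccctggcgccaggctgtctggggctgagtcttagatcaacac
Id3 upstream, NFO, chr4:136140230-136140465: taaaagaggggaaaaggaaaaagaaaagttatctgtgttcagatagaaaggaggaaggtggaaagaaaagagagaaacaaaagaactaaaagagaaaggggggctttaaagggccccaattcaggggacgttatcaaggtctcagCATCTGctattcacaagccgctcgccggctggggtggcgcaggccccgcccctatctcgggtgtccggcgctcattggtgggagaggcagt
Id3 downstream, OPC, chr4:136163497-136163726: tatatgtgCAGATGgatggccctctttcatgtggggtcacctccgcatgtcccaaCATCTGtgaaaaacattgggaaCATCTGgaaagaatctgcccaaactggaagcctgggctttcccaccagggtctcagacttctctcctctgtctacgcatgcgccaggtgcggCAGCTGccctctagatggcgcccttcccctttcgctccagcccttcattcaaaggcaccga
Id4 downstream, OPC, chr13:48277265-48277494: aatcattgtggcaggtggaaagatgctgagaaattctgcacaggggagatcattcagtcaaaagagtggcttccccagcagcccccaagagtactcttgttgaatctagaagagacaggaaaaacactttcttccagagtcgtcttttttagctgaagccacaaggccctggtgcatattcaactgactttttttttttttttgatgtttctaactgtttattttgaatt

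Which of these genes carried H3K4me3 at each stage? All 10 had a called H3K4me3 peak in NSCs and all 10 in OPCs, where 52.5% and 47.5% of all genes had one. In NFOs 7 of 10 had one, beside 36.9% of all genes. Over protein-coding genes alone, the class of the members, the shares were 67.1%, 62.5% and 47.9% in NSCs, OPCs and NFOs. With the filter of the Methods (FDR below 0.05 and a fold enrichment above 3.5) the NFO count was 6, since it removes both NFO peaks of Bmpr1b. Bmp7, Nog and Id1 had none listed in NFOs. Of the genes with H3K4me3 in NSCs, 34.1% had none listed in NFOs, so 3 of 10 is near the share over all genes. The width of the mark, summed over a gene's peaks, differed more than its presence. The medians over the 10 genes in NSCs, OPCs and NFOs were 3379, 1858 and 684 bp. Over the 18531 genes with H3K4me3 in NSCs they were 2347, 1323 and 296 bp. In NFOs the summed width was below that in NSCs at 10 of 10 members and at 97.9% of those genes, and in OPCs at 8 of 10 members and at 92.7%. A lower width was thus common to nearly all genes that had H3K4me3 in NSCs, a choice that leaves out genes with the mark only later. Bmp2 and Bmp4 were the members with a higher width in OPCs than in NSCs. The median width of all listed H3K4me3 peaks was likewise lowest in NFOs, at 256 bp, against 553 bp in NSCs and 987 bp in OPCs.

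**Figure D1:**
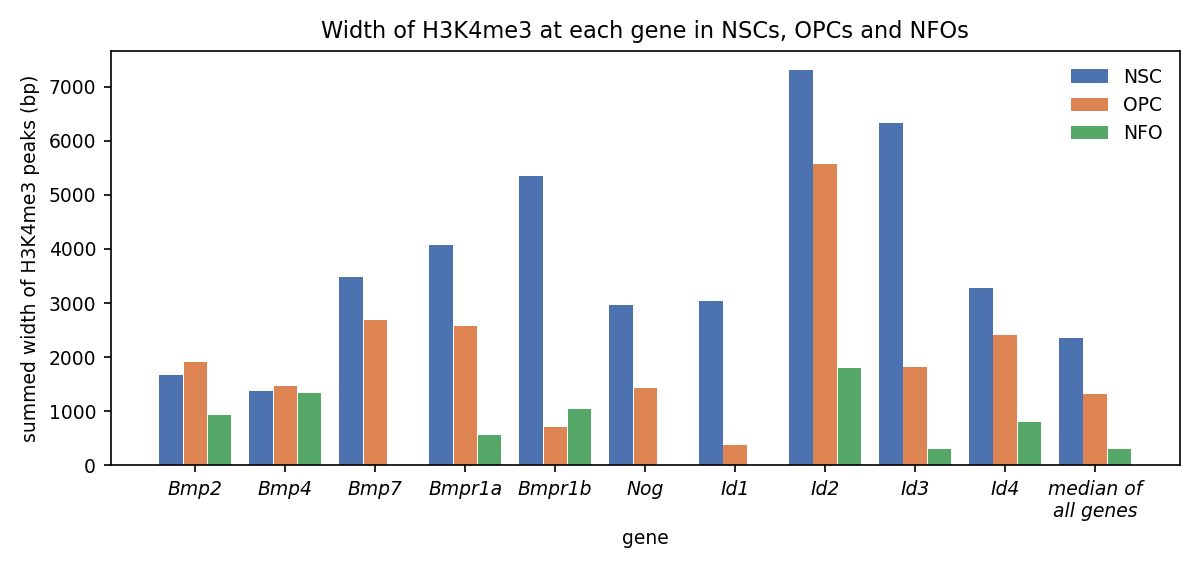
Summed width of H3K4me3 called peaks (bp, linear axis from 0) at each gene in NSCs, OPCs and NFOs, with the median over the 18531 genes that had H3K4me3 in NSCs; each bar is 1 library. Id2 and Id3 are the widest in NSCs at 7298 and 6326 bp, the bars of Bmp4 are nearly level, and Bmp7, Nog and Id1 have no NFO bar.

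Fewer members had H3K27me3, and mostly the same ones at each stage. Bmp4, Bmpr1b and Id4 had a listed peak in all 3 cell types, as did 6.82% of all genes. These 3 genes were the members with H3K27me3 in NSCs, where 28.1% of all genes had it. Bmp2 joined them in OPCs and in NFOs, making 4 of 10 in each, beside 21.5% and 11.3% of all genes. Over protein-coding genes alone the shares were 33.7%, 24.7% and 13.2% in NSCs, OPCs and NFOs. No H3K27me3 peak was listed at Bmp7, Bmpr1a, Nog, Id1, Id2 or Id3 in any cell type. With a fold enrichment above 5 the counts of members with H3K27me3 were 1, 2 and 1, and within 1 kb of a TSS they were 1, 2 and 2. Within 2 kb of a TSS the NSC count was 1, since the NSC peaks of Bmpr1b lay 6594 to 63308 bp from any start site and that of Id4 lay 3150 bp from one. H3K4me3 and H3K27me3 peaks that overlapped by at least 1 bp were found at Bmp4 in NSCs, at Bmp2, Bmp4 and Bmpr1b in OPCs, and at Bmp4 and Id4 in NFOs. The shares of all genes with such an overlap were 11.6%, 5.17% and 3.23%. Bmp4 was the member with overlapping marks at every stage. A library of many cells does not tell whether the marks share a cell. With peaks of at least 500 bp alone, no member had overlapping marks in NSCs and Bmp4 was the member that had them in OPCs and in NFOs. The shares of all genes under these stricter settings are not given here, so the counts alone do not compare the members with all genes.

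**Figure D2:**
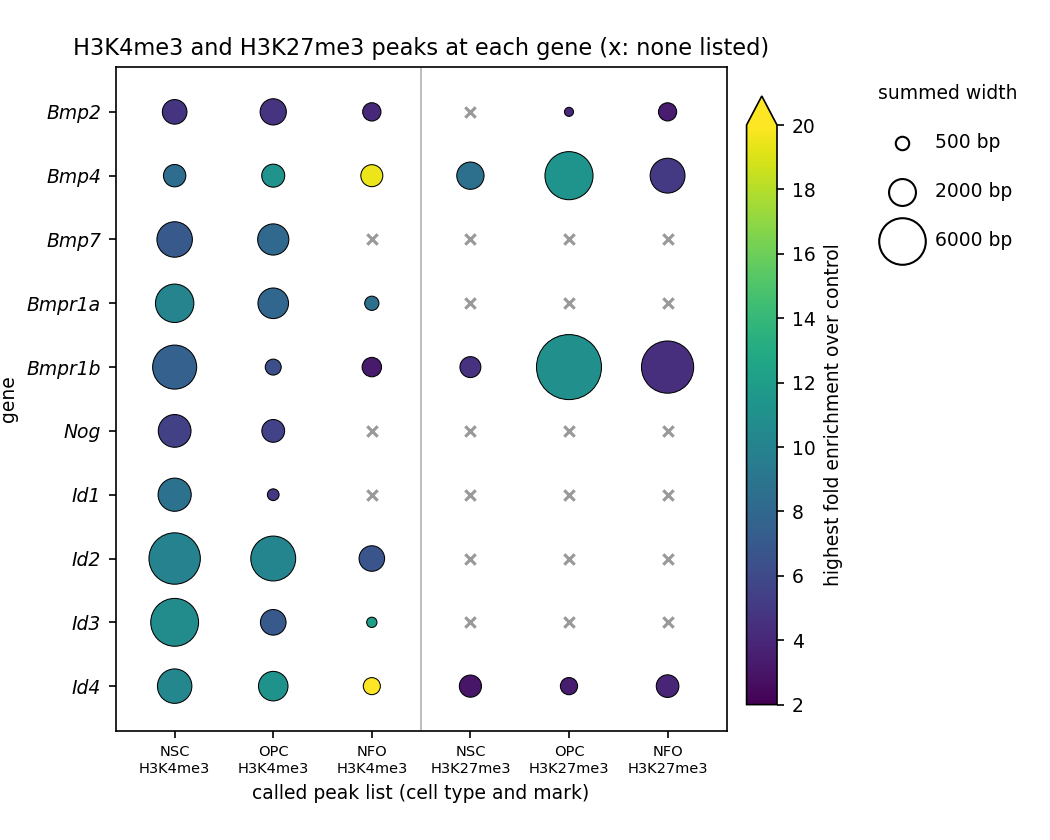
H3K4me3 (left) and H3K27me3 (right) at each gene in the 3 cell types: circle area is the summed width of called peaks (bp), colour the highest fold enrichment over the control, and a cross means that none was listed. H3K27me3 is seen at Bmp2, Bmp4, Bmpr1b and Id4, and the narrow NFO H3K4me3 peaks of Bmp4 and Id4 have the highest fold enrichments, 19.5 and 28.0.

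Fold enrichment, the ratio of pull-down to control as the authors' peak caller gave it, is not on 1 scale across libraries, so each peak is also placed by its percentile among all peaks of its list. Bmp2 (chr2:133552159-133562885, plus strand) encodes a ligand that induces bone and patterns the dorsal neural tube. Its start site lay in an H3K4me3 peak of 1673 bp with a fold enrichment of 4.77 in NSCs and of 1902 bp with 4.68 in OPCs, at percentiles 51.0 and 30.4. In NFOs the listed H3K4me3 lay inside the gene, with peaks of 746 bp and 180 bp centred 1281 bp and 2454 bp from the 5′ end. The H3K27me3 peak of Bmp2 in OPCs was 226 bp wide with a fold enrichment of 4.15 and overlapped the end of the H3K4me3 peak by 129 bp, in an intron beside a run of 11 A or T. In NFOs it was 914 bp wide with a fold enrichment of 3.35, below the 3.5 that the Methods require, and began 3496 bp from the start site. Bmp2 therefore had both marks in OPCs and NFOs, and they overlapped in OPCs.

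Bmp4 (chr14:46383520-46390669, minus strand) encodes the BMP most used to turn precursors towards astrocytes in culture. In NSCs its main H3K4me3 peak was 1202 bp wide with a fold enrichment of 8.33, and in OPCs it was 1465 bp wide with 11.2, at percentiles 79.4 and 94.7. In NFOs the peak there was 260 bp wide with a fold enrichment of 19.5, at percentile 98.4 of its list. Their centres lay 3512 to 4003 bp from the outermost 5′ end, at or near internal start sites, and all overlapped the intronic stretch chr14:46386578-46386807 that is printed above for the OPC OLIG2 peak. H3K27me3 covered the same stretch, with a peak of 409 bp and a fold enrichment of 8.58 in NSCs, 1194 bp and 9.80 in OPCs, and 2013 bp and 5.08 in NFOs. The NSC peak stood at percentile 99.8 of its list. All 6 histone lists and the OPC OLIG2 list thus had a peak at 1 place in Bmp4, and that place has a run of 19 A or T within 50 bp. A broad H3K27me3 peak of 4213 bp with a fold enrichment of 4.56 spanned the 5′ end of Bmp4 in OPCs, and no OPC H3K4me3 peak listed for the gene overlapped it. In NFOs another H3K4me3 peak, of 885 bp, overlapped an H3K27me3 peak of 838 bp by 609 bp in an intron near the 5′ end.

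Bmp7 (chr2:172868012-172940321, minus strand) encodes a ligand of kidney, eye and brain. It showed H3K4me3 alone, with a peak over the start site of 2500 bp and a fold enrichment of 6.93 in NSCs and of 2693 bp and 8.04 in OPCs. A weaker NSC peak of 978 bp lay 5579 bp from the nearest start site, in an intron. In NFOs Bmp7 had no histone peak listed and 1 OLIG2 peak, below the fold enrichment of 5 that the Methods ask.

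Nog (chr11:89300638-89302332, minus strand), the gene of noggin, also had H3K4me3 alone, and in NSCs and OPCs alone. The peak spanned the start site and was 2962 bp wide with a fold enrichment of 5.50 in NSCs and 1434 bp wide with 5.58 in OPCs. These stood at percentiles 59.3 and 47.2, near the middle of each list.

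**Figure D3:**
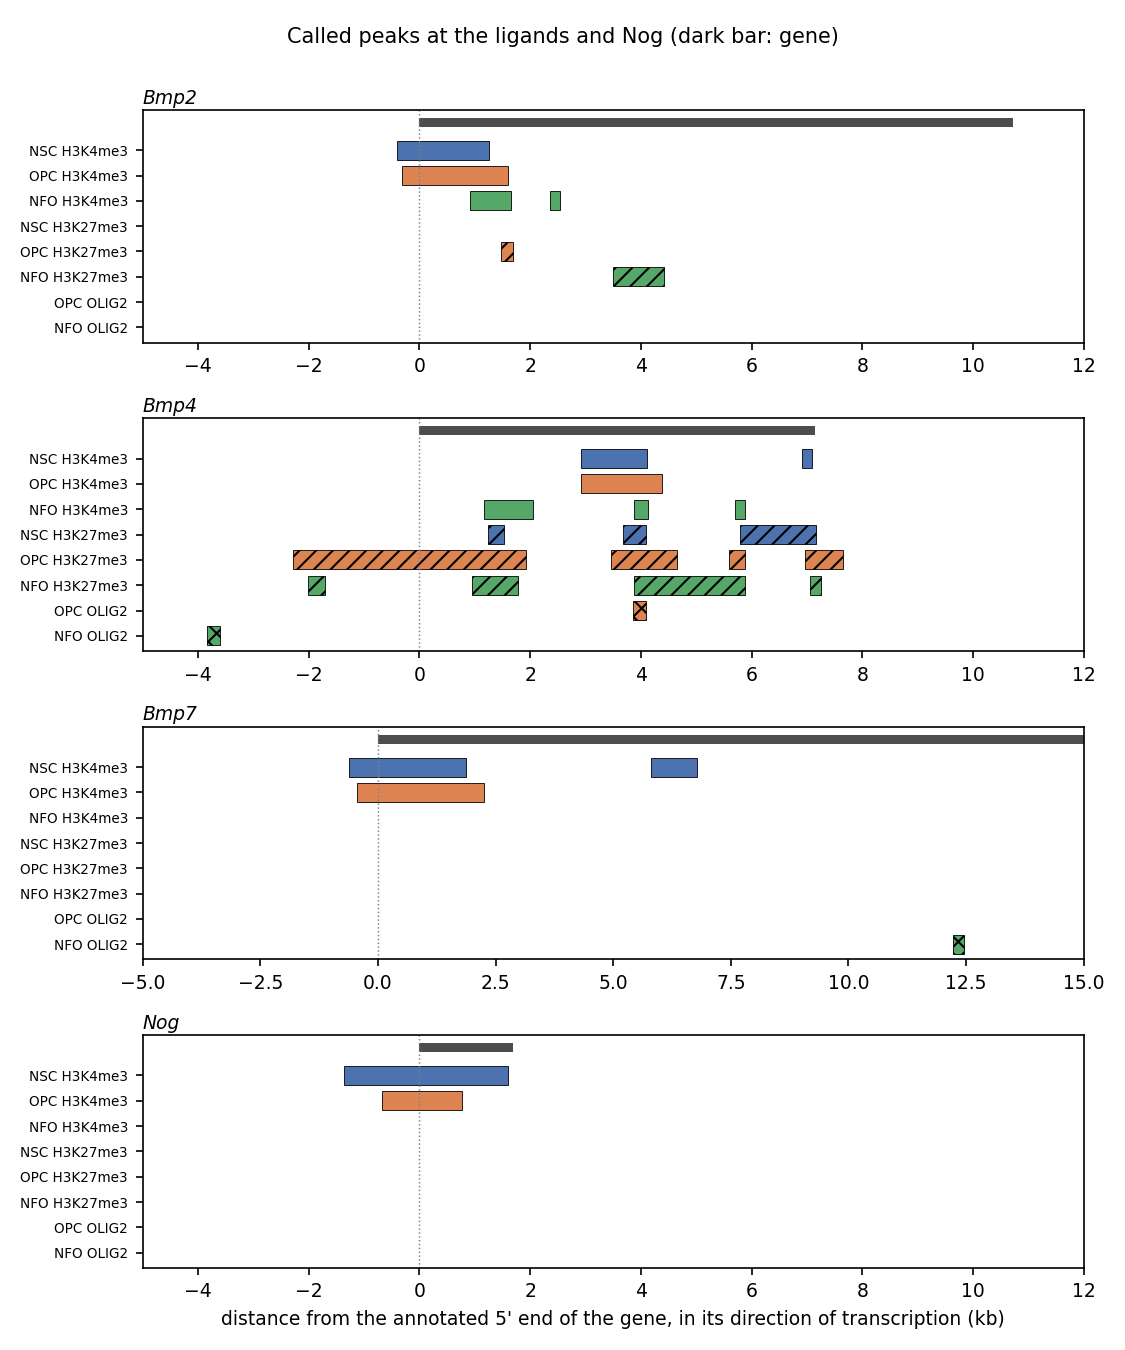
Called peaks at Bmp2, Bmp4, Bmp7 and Nog in the 8 lists, placed by distance (kb) from the gene's annotated 5′ end in its direction of transcription; histone peaks are drawn where they lie within 2 kb of a TSS or in the gene, and plain, striped and crossed bars stand for H3K4me3, H3K27me3 and OLIG2. At Bmp4 all 6 histone lists and the OPC OLIG2 list have a peak about 4 kb into the gene.

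Of the receptors, one had H3K4me3 alone and the other had both marks. Bmpr1a (chr14:34410734-34503341, minus strand), whose product is a type I receptor found in most tissues, had H3K4me3 and no H3K27me3. Its peak over the start site was 3598 bp wide with a fold enrichment of 10.1 in NSCs and 2584 bp with 7.84 in OPCs. The NFO peak, of 561 bp with 8.59, lay in an intron, 670 bp from the nearest start site, so the listed mark was narrower but stood at percentile 87.5. Bmpr1b (chr3:141837136-142169425, minus strand), which encodes the type I receptor known from cartilage and the ovary, is 332290 bp long, and its number of peaks is read against that length. It had 5, 2 and 2 H3K4me3 peaks in NSCs, OPCs and NFOs, of 5357, 704 and 1046 bp in all.

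At the 5′ end of Bmpr1b the H3K4me3 peak was 2058 bp wide with a fold enrichment of 7.52 in NSCs and 511 bp wide with 5.52 in OPCs. The NFO peak there was 219 bp with 3.25, its −log10 q of 1.14 falling short of the 0.05 FDR of the Methods. H3K27me3 was listed at 4, 11 and 9 places, with summed widths of 1210, 11682 and 7533 bp. In each cell type some of these peaks were under the filter of the Methods. In OPCs the widest, of 3361 bp, lay in an intron 75890 bp from any start site, and the one with the highest fold enrichment, 11.0, was 223 bp wide beside a run of 14 A or T. Several H3K27me3 peaks of OPCs and NFOs coincided in the introns, as a peak of 1465 bp in OPCs and one of 1375 bp in NFOs began 1 bp apart at 142064818 and 142064819. In NSCs the 4 peaks were at most 329 bp wide and each beside a run of at least 11 A or T. Overlapping marks were listed for Bmpr1b in OPCs alone, over 173 bp near an internal start site beside runs of 19 and 27.

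The Id genes are the classic readout of BMP signalling, and in NSCs Id2 and Id3 had the widest H3K4me3 of the members. Id1 (chr2:152736251-152737410, plus strand) had the lowest ratio of OPC to NSC width among the members, 0.125. Its peak in NSCs ran from 152735271 to 152738308 over the whole gene, 3038 bp with a fold enrichment of 8.69. In OPCs a peak of 379 bp with a fold enrichment of 4.82 lay within an exon, and in NFOs no peak was listed. Id1 had neither H3K27me3 nor OLIG2 peaks, so its record in these lists is that of a start site with H3K4me3 in NSCs and little afterwards.

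Id2 (chr12:25093799-25097140, minus strand) held the most H3K4me3 of the 10 genes at each stage, 7298, 5566 and 1802 bp from NSCs to NFOs. The peak over the gene was 4267 bp wide with a fold enrichment of 9.97 in NSCs, 4186 bp with 10.2 in OPCs and 1802 bp with 6.72 in NFOs, at percentiles 89.2, 92.4 and 81.0. A further upstream peak was 3031 bp wide in NSCs and 1380 bp in OPCs, and was not listed in NFOs. Like Id1, Id2 had no H3K27me3 and no OLIG2 peak within 50 kb.

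Id3 (chr4:136143497-136145755, plus strand) had 6326, 1814 and 293 bp of H3K4me3 from NSCs to NFOs. The peak over its start site had fold enrichments of 10.7, 6.97 and 12.1 in that order. The 293 bp of NFOs, of which 56 bp lay in the 5′ untranslated region, stood at percentile 93.4 and held a run of 15 A or T. In NSCs a separate peak of 1514 bp with a fold enrichment of 3.81 lay upstream, from 136140049 to 136141562.

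Id4 (chr13:48261228-48266026, plus strand), whose product is known as an inhibitor of oligodendrocyte differentiation downstream of BMP4, was the Id gene with both marks. Its H3K4me3 over the start site was 3279 bp wide with a fold enrichment of 10.3 in NSCs and 2409 bp with 11.1 in OPCs. In NFOs it was 325 bp wide with a fold enrichment of 28.0, at percentile 99.8 of the list, and the longest run of A or T there was 8. H3K27me3 at Id4 was centred 3827, 2754 and 2503 bp from the 5′ end in NSCs, OPCs and NFOs, within untranslated exon sequence, with 1356 bp and a fold enrichment of 3.05 in NSCs, 821 bp and 3.40 in OPCs and 1416 bp and 3.85 in NFOs. The NFO peak was the one that met the filter of the Methods, and its overlap with another H3K4me3 peak of the gene was 69 bp. The H3K27me3 of Id4 thus sat beside, and mostly apart from, the H3K4me3 of its start site.

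**Figure D4:**
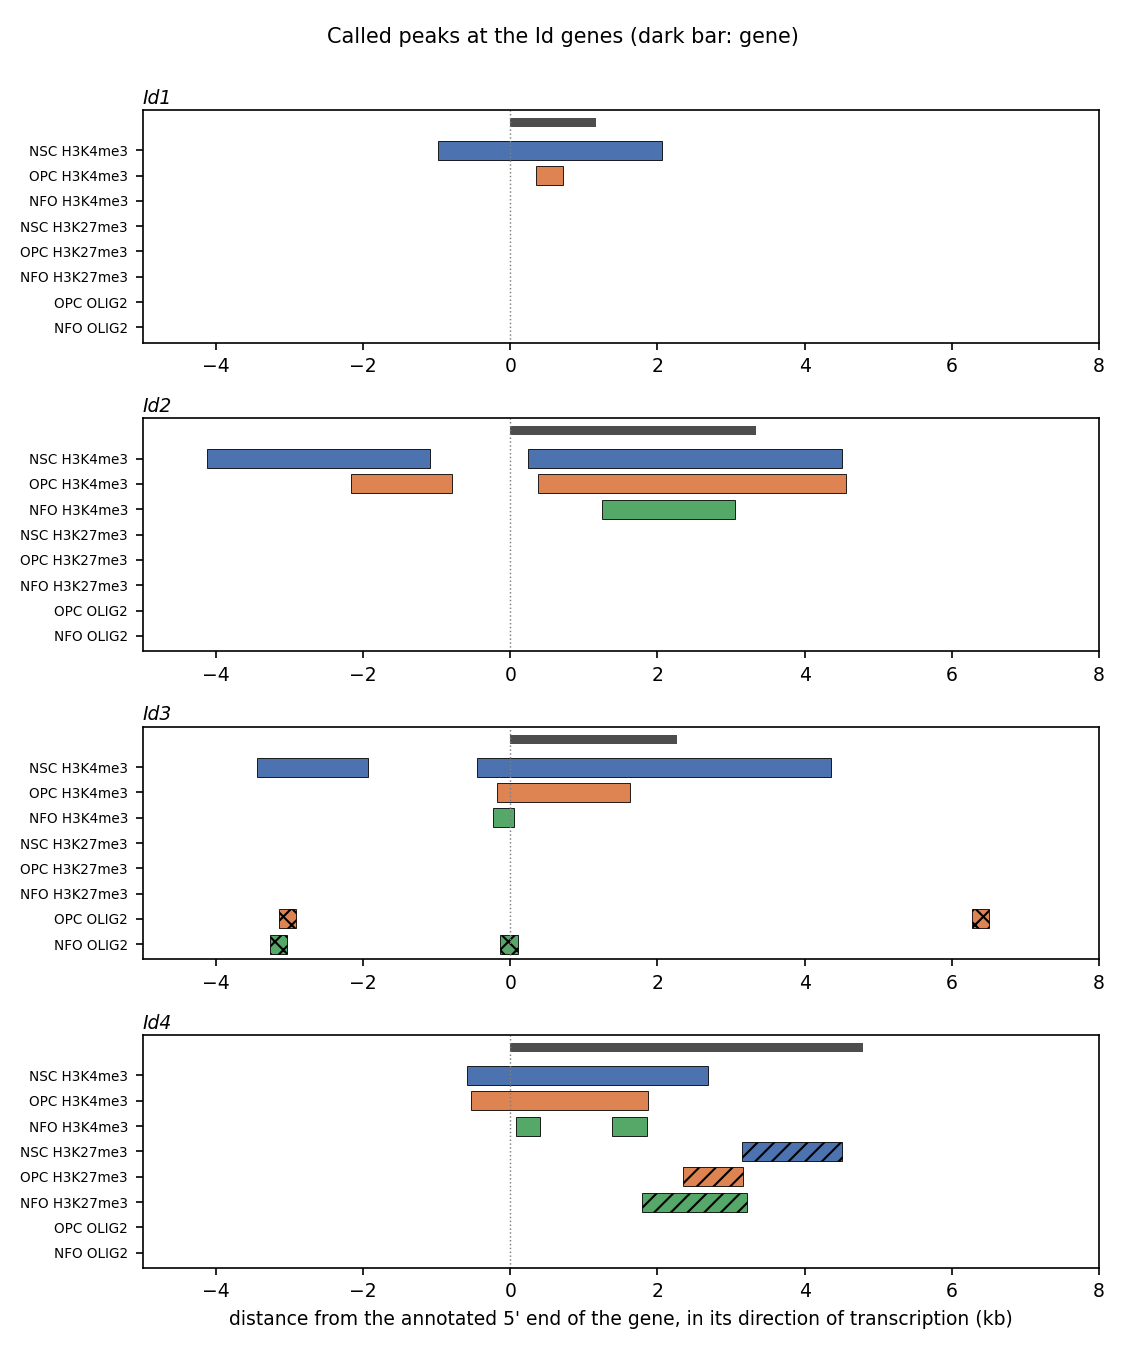
Called peaks at Id1, Id2, Id3 and Id4, drawn by distance (kb) from the annotated 5′ end as for the ligands, histone peaks again within 2 kb of a TSS or in the gene. From NSCs to NFOs the H3K4me3 bars shorten to none at Id1, 1802 bp at Id2, 293 bp at Id3 and 325 bp and 481 bp at Id4, and H3K27me3 appears at Id4 alone, centred 2503 to 3827 bp from the 5′ end.

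OLIG2 was called in the body of Bmp4 and Bmpr1b in OPCs and of Bmp7 and Id3 in NFOs, that is at 2 of 10 members in each, beside 10.3% and 18.3% of all genes. Within 50 kb, OLIG2 peaks lay near 6 of 10 members in OPCs (14 peaks) and near 7 of 10 in NFOs (9 peaks). All genes had one within 50 kb in 38.8% and 61.7% of cases, and protein-coding genes alone in 42.4% and 65.1%. Bmp4, Bmpr1a, Bmpr1b, Nog and Id3 had OLIG2 peaks at both stages, as did 29.7% of all genes. Bmp2 and Bmp7 had one in NFOs and Id4 one in OPCs. A run of 10 or more A or T was present at 10 of the 14 OPC peaks and 6 of the 9 NFO peaks, near the shares over all OLIG2 peaks. Without such peaks, an alternative added after the data were seen, Bmpr1a and Id3 had OLIG2 peaks in OPCs and Bmp7, Bmpr1a and Id3 in NFOs. That is 2 and 3 of 10 members, beside 11.0% and 20.9% of all genes. With a fold enrichment above 10 the counts of members within 50 kb were 3 and 3, and in NFOs 4 members had an OLIG2 peak within 20 kb. Shares of all genes were not set beside these last counts.

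**Figure D5:**
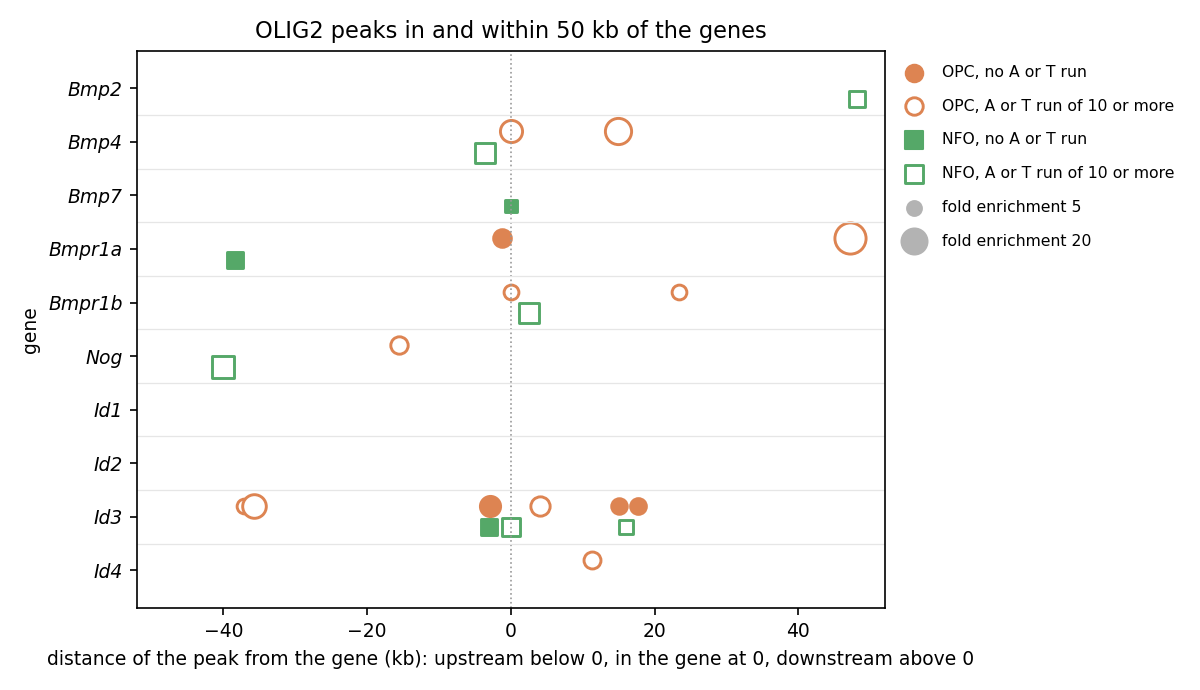
OLIG2 called peaks in and within 50 kb of each gene, by distance from the gene (kb, upstream below 0), in OPCs (circles) and NFOs (squares); marker area grows with fold enrichment, and open markers have a run of 10 or more A or T within 50 bp. Filled markers are seen at Bmp7, Bmpr1a and Id3, that of Bmp7 being a peak under the filter of the Methods. Id3 has 6 OPC and 3 NFO peaks, and Id1 and Id2 have none.

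Id3 stood out by number. It had 6 OLIG2 peaks within 50 kb in OPCs, a number reached by 31 genes, or 0.0878% of all, in a comparison chosen after its value was seen. The 3 NFO peaks were matched or exceeded by 14.7% of genes. The OPC peaks had fold enrichments of 5.004 and 16.2 at 37062 and 35696 bp upstream, 11.3 at 2920 bp upstream, and 10.1, 5.82 and 6.03 at 4017, 15121 and 17742 bp downstream. Those at 15121 and 17742 bp lay nearer to E2f2, which encodes a cell cycle factor. Of the 6, the peaks at 37062 bp and 35696 bp upstream and at 4017 bp downstream had runs of 43, 17 and 18 A or T, and the other 3 had none of 10 or more.

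The peak about 3 kb upstream of Id3 was the one place near the members where OLIG2 was called at both stages. The OPC peak (chr4:136140348-136140577, fold enrichment 11.3) and the NFO peak (chr4:136140230-136140465, fold enrichment 7.24) overlapped, and both printed sequences hold the same CATCTG and no run of 10 A or T. Both lay in the NSC H3K4me3 peak from 136140049 to 136141562. The NFO peak also overlapped an NFO H3K4me3 peak of 660 bp and an OPC H3K27me3 peak of 582 bp, which lie beyond 2 kb of the start site and so are not in the counts for the marks. The other NFO peaks of Id3 were one of fold enrichment 8.30 over the start site, on the narrow H3K4me3 peak and its run of 15, and one of 3.68 at 16009 bp downstream, beside a run of 15 and below the fold enrichment of 5 that the Methods ask. The downstream one lay nearer to E2f2, at 10395 bp.

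At Bmp4 the OPC OLIG2 peak in the intron had a fold enrichment of 14.0, at percentile 85.4, and no E-box of any kind (CANNTG). A stronger OPC peak of 20.5 lay 14955 bp downstream, beside a run of 16 and likewise without CANNTG. This stronger peak lay nearer to another protein-coding gene, Gm15217, at 10849 bp. The NFO peak of Bmp4 lay 3605 bp upstream with a fold enrichment of 11.7, holds a CAGATG and begins beside a run of 20. It overlapped H3K27me3 peaks of all 3 cell types, of 1009, 261 and 705 bp from NSCs to NFOs, and an NSC H3K4me3 peak of 679 bp. The intronic OPC peak and the upstream NFO peak thus lay at different places, each on H3K27me3 of its own cell type.

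The remaining ligands and Nog had 1 OLIG2 peak a stage at most. The Bmp7 peak in NFOs lay in an intron 12345 bp from the 5′ end and holds a CAGCTG. Its fold enrichment of 2.76 was at percentile 2.26 and its −log10 q was 0.582, both under the filter of the Methods. The Bmp2 peak in NFOs, of 5.31, lay 48126 bp downstream beside a run of 14. Near Nog the OPC peak, of 7.80, lay 15590 bp upstream on an OPC H3K27me3 peak of 198 bp, both beside a run of 16 A or T. The NFO peak, of 12.8, lay 40011 bp upstream beside a run of 28.

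Of all OLIG2 peaks near the members, the one with the highest fold enrichment, 29.8, was listed for Bmpr1a in OPCs. It lay 47258 bp downstream and 6798 bp from Sncg, the gene of γ-synuclein, and overlapped H3K4me3 peaks of all 3 cell types of 936, 704 and 205 bp. Its run of A or T was 10 long. The OPC peak nearer to Bmpr1a, 1260 bp upstream with a fold enrichment of 8.13, holds a CATCTG and has no such run inside 50 bp. It overlapped an NSC H3K4me3 peak of 240 bp, which had a run of 21. The NFO peak of Bmpr1a, 38361 bp upstream with a fold enrichment of 5.39, lay over an exon of Ldb3.

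Bmpr1b had OPC peaks of 5.03 in the neighbouring gene Unc5c and 5.07 in its own intron, just above the filter of 5, beside runs of 17 and 14 A or T. Its NFO peak, of 11.0, lay 2473 bp downstream in an untranslated exon of Unc5c, a netrin receptor gene, beside a run of 24. Near Id4 the OPC peak, of 7.30, lay 11239 bp downstream and coincided with H3K27me3 peaks of 398, 322 and 236 bp from NSCs to NFOs, and no NFO OLIG2 peak was listed. The OPC peak had a run of 15 A or T. Coincidence with H3K27me3 of the same cell type was found for 3 of the 14 OPC peaks and 1 of the 9 NFO peaks, beside 10.5% and 2.44% of all OLIG2 peaks.

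The E-box content of these peaks was near that of all OLIG2 peaks and of the genome. CAGATG or CATCTG was found in 3 of 14 OPC peaks and 2 of 9 NFO peaks, against 18.9% and 17.4% of all OLIG2 peaks and 17.1% of genome windows of 230 bp. CAGCTG was found in 2 of 14 and 2 of 9, against 13.6%, 10.1% and 8.16%. CATATG was found in none of the 23, against 6.20%, 6.51% and 7.28%. Any CANNTG, which takes in the others, was found in 9 of 14 and 8 of 9, against 70.4%, 69.3% and 70.7%. The richest was the OPC peak 17742 bp downstream of Id3, with 3 copies of CAGATG or CATCTG and 1 of CAGCTG among 6 CANNTG. A match is a description of the sequence and does not show binding at those letters.

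The other 37 genes of the pathway that were listed had H3K4me3 at 34, 32 and 25 genes and H3K27me3 at 23, 18 and 15 genes in NSCs, OPCs and NFOs. Overlapping marks were found at 13, 5 and 6 of them. Over all genes the shares were 52.5%, 47.5% and 36.9% for H3K4me3 and 28.1%, 21.5% and 11.3% for H3K27me3. For overlapping marks they were 11.6%, 5.17% and 3.23%. A setting chosen after seeing the data left out narrow peaks at runs of A or T. With it H3K4me3 was at 34, 32 and 20 of the 37 genes and H3K27me3 at 15, 14 and 12. The shares above are for all listed peaks, and those in this setting are not given here. Among the 9 other ligands, Bmp3 and Gdf6 had overlapping marks at all 3 stages, and Bmp8b and Gdf7 had them in NSCs. Of 12 other antagonists and modulators, Fst, the gene of the activin and BMP binder follistatin, and Rgmb, a BMP co-receptor gene, had them at all 3 stages, Grem1 in NSCs and NFOs and Twsg1 in NSCs, the last 2 being genes of secreted BMP binders. Smad6, which encodes an inhibitory SMAD, had them at all 3 stages, and Smad1 and Smad9, genes of the receptor-activated SMADs, in NSCs. The E protein genes Tcf4 and Tcf12, whose products ID proteins hold, had them in NSCs. None of the 5 other receptors (Acvr1, Acvrl1, Bmpr2, Acvr2a and Acvr2b) had overlapping marks at any stage, as was true of Bmpr1a.

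RIP-Seq listed 101310 sites for the OLIG2 antibody and 83195 for control IgG, with 1866355 and 1923595 tags in all. Each was 1 library, from cells that the labels call NFOs and the methods NSCs. Sites were not selected here against IgG, so a site in the OLIG2 list is not by itself RNA bound by OLIG2. Neither list holds a site in a transcript of the 10 members or within their coordinates. These lists hold called sites from 1961 and 1971 transcripts, matched to 613 and 618 of the 35312 genes. Most genes were thus without a site, and a member without one is unlisted and not shown to be unbound.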

How the data were processed

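Of 13 samples, with 1 library per condition, groups were taken from the sample titles. ChIP-Seq reads were aligned by the authors with Bowtie2 (mm10). They retained uniquely mapped ones, called broad histone peaks with MACS2 and OLIG2 peaks with SPP for each library, and left out blacklisted regions; versions are not given in the sources used here. The deposited lists give the fold enrichment of each peak over the control, a ratio from the authors' peak caller, and the −log10 of its q (FDR), with the −log10 p for the histone marks. All listed peaks were used, also those under the filter of the Methods (FDR below 0.05 and a fold enrichment above 3.5 for the marks and above 5 for OLIG2), which was an alternative. RIP-Seq sites came from ASPeak, and their deposited tag count is a raw whole number. The p-value and the RPKM in the deposited site lists, both from the authors' ASPeak run, were not used to select sites. Read depth is not in the lists, so no interval on a peak was made and a peak that is not listed may reflect depth.

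Genes (35312, of which 21938 protein-coding and 13374 lncRNA) and their TSSs came from GENCODE M21. Peaks were assigned with Python 3.11.15, NumPy 2.4.6 and pandas 2.3.3, sequences were read from the RefSeq GRCm38 genome with pysam 0.24.0, and figures were drawn with Matplotlib 3.10.9. The assignment was tested on simulated peaks and was right for 2000 of 2000 genes. The alternatives were the Methods' filter, stricter fold enrichments, other distances, a minimum width, a 200 bp overlap of marks and protein-coding genes alone. Leaving out peaks under 500 bp at runs of A or T was added after the data were seen. All 10 genes are named; of the 37 other pathway genes, those with overlapping marks, and those with the OLIG2 peak of the highest fold enrichment in each role, are named. The genes and lists were chosen with earlier results of these data known. Input libraries were not used, and OLIG2 ChIP-Seq of NSCs was not analysed here. The result for 1 marker gene is not reported here.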

Additional observations from a re-analysis of the deposited data

How the results depend on the processing

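No paired analysis was possible because each condition has 1 library, and leaving out a replicate was not possible for the same reason. H3K4me3 was listed at 9 or 10 members in NSCs, 8 to 10 in OPCs and 5 to 7 in NFOs under all alternatives. The counts of H3K27me3 in NSCs, OPCs and NFOs, 3, 4 and 4 of 10, became 1, 2 and 1 with a fold enrichment above 5, and 1, 2 and 2 within 1 kb of a TSS; within 2 kb of a TSS the NSC count was 1. Overlapping marks, at 1, 3 and 2 members, were 0, 1 and 1 with peaks of at least 500 bp. Without narrow peaks at runs of A or T, chosen after seeing the data, they were 0 in NSCs and 1 in OPCs. An overlap of 200 bp gave 1 in OPCs and 1 in NFOs, and the NFO count was also 1 with the filter of the Methods, with a fold enrichment above 5 and within 1 kb of a TSS. OLIG2 peaks near 6 members in OPCs and 7 in NFOs became 3 and 3 with a fold enrichment above 10, and 2 and 3 without peaks at runs of A or T. In NFOs they were 3 in the gene or within 5 kb upstream and 4 within 20 kb. The filter and distance settings remove peaks by construction, and beyond that the cause was not tested. Shares of all genes are given for the main settings, for OLIG2 without peaks at runs and for protein-coding genes alone. Under the other settings a count has no such share beside it. The other 48 recomputed counts of members lay within 1.5 times the reported one. Over protein-coding genes alone the shares of genes with a peak were higher, such as 47.9% for H3K4me3 and 65.1% for OLIG2 within 50 kb in NFOs. Depth, which the lists do not give, limits what an unlisted peak means.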

Other observations

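OLIG2 peaks were also listed within 50 kb of 20 of the 37 other pathway genes in OPCs and 28 in NFOs, and in the body of 8 and 16, beside the shares of all genes given above. By role, the counts in OPCs and NFOs were 4 and 5 of 9 other ligands, 3 and 5 of 5 other receptors, 4 and 7 of 12 antagonists and modulators, 7 and 8 of 8 SMADs and SMURFs, and 2 and 3 of 3 E proteins. The peaks of the highest fold enrichment within 50 kb were as follows. For the antagonists and modulators they were near Rgma, a BMP co-receptor gene (26.6, OPCs), and near Chrd, the chordin gene (27.4, NFOs). For the E proteins they were near Tcf3, at 15.1 and 33.4, and for the ligands near Bmp8a, at 17.3 and 15.8. For the receptors they were near Acvr2a in OPCs (15.5) and Acvr1 in NFOs (18.4), and for the SMADs near Smad7 in OPCs (13.8) and Smad4 in NFOs (19.7). How far from each gene these peaks lay, whether another gene was nearer, and which had runs of A or T are not given here. Without peaks at runs of A or T, a setting chosen after seeing the data, 6 of the 37 genes had an OLIG2 peak within 50 kb in OPCs and 10 in NFOs. The shares of all genes in that setting were 11.0% and 20.9%.

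The long genes Tcf4 and Tcf12, which encode E proteins, had the most H3K4me3 peaks of the pathway list in NSCs, 16 and 11, and 8 and 2 in NFOs. Tcf3 had 1 in NSCs, 1 in OPCs and none listed in NFOs.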
